A study of Mus musculus with 20 samples.

Results

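Muscle burns fatty acids in a fixed sequence of steps. Fatty acids released from lipoproteins or from droplets inside the fibre are carried across the membrane, bound in the cytosol, activated to acyl-CoA, passed into the mitochondrion on carnitine and shortened there by repeated rounds of oxidation. The entry step at the outer mitochondrial membrane is held back by malonyl-CoA, and the nuclear receptors PPARalpha and PPARdelta, which bind fatty acids, drive the transcription of many of the genes. The 36 genes described here cover that sequence, in the gastrocnemius, a mixed hindlimb muscle made mostly of fast fibres. They were chosen by name, with earlier results of these data known. Counts of members set beside shares of all genes therefore describe the list and do not test it. Each of the 36 names was found once among the 31618 genes of the deposited table.

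The libraries came from male C57BL/6N mice. TM+NAC mice received tetrathiomolybdate (TM), a copper chelator, together with N-acetylcysteine (NAC), a thiol antioxidant and cysteine source, and the other treated groups were TM alone and NAC alone, each labelled 28 days. Control mice carry no treatment in the labels, and dose, route and age are not given there. Each group has 5 libraries, 20 in all, and the study's title links the effect of TM on muscle to reactive oxygen species. The labels number the replicates without saying that each is a separate mouse, so a p-value here speaks to how far these libraries vary, and some of that may be technical.

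Library totals lay between 54.7 and 90.7 M counts (median 63.3 M), and the 36 genes took 0.47 to 0.718% of the counts. Muscle fibre markers were high in every group, though such markers do not tell the gastrocnemius from other muscles. The summed level of 6 of them was 69200 to 93700 CPM (scaled counts as parts of 1 M) in TM+NAC and 72900 to 95600 in TM. It was 81100 to 87500 in NAC and 78600 to 91900 CPM in Control. Libraries NAC 4 and TM 1 stood apart from their groups in 15 neuron markers. The summed neuron level was 128 CPM in NAC 4 against 262 to 271 CPM in the other NAC libraries, and 151 CPM in TM 1 against 196 to 230 CPM in the other TM libraries. It was 238 to 272 CPM in TM+NAC and 139 to 158 CPM in Control. Camk2b, at 116 to 138 CPM in Control and 110 to 151 CPM in NAC, made up most of the Control sum. Within NAC, Snap25 ran from 0.218 to 14.7 CPM and Syt1 from 0.102 to 10.2 CPM, while Stmn2 ran from 4.69 to 6.47 CPM. NAC 4 was also the largest library, with 20.3% of its counts in genes of the mitochondrial genome, where the Control libraries had 13.2 to 17.1%. For the members, the comparisons that involve NAC are also given without NAC 4, and those that involve TM alone also without TM 1.

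Of the 36 members, 35 had a mean of at least 1 FPKM, the authors' depth- and length-scaled fragment count, over the 20 libraries and were tested, and Angptl4 (mean 0.747 FPKM) was not. No member passed in any of the 6 comparisons with edgeR's quasi-likelihood test at a Benjamini-Hochberg adjusted p under 0.05, nor with DESeq2 or limma. The data on these genes therefore consist of their levels, their spread between muscles, and differences between groups that are given below with their errors. In a mixed tissue, fewer cells of a type and less RNA per cell cannot be told apart.

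The promoters of 4 members are shown because these genes moved together across muscles: Pdk4, Ucp3 and Cpt1a with each other, and Hadhb with Hadha. Each sequence is the stretch of 250 bases before the gene's start in RefSeq (GRCm38.p6), 5′ to 3′ on the gene's strand. Capitals mark matches to AGGTCA or its reverse complement TGACCT, the core motif of nuclear receptors, a class that includes the PPARs. Pdk4 lies at chr6:5496279-5496528 on the minus strand, Ucp3 at chr7:100472741-100472990, Cpt1a at chr19:3323051-3323300 and Hadhb at chr5:30155003-30155252, all on the plus strand. The deposited table places some starts farther upstream: by its coordinates the last 31 bases of the Pdk4 stretch and all 250 bases of the Cpt1a stretch lie inside those genes, while the Ucp3 and Hadhb starts differ by 1 and 5 bases.
Pdk4: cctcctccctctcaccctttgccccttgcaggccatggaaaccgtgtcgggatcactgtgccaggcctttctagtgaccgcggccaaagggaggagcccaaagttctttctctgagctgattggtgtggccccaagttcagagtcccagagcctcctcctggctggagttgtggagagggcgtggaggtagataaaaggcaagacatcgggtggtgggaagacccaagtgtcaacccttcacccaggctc
Ucp3: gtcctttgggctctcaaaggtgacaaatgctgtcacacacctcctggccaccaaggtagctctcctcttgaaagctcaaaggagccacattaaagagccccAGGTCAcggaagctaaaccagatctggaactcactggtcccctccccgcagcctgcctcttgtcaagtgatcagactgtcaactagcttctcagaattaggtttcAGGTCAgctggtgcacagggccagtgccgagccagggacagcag
Cpt1a: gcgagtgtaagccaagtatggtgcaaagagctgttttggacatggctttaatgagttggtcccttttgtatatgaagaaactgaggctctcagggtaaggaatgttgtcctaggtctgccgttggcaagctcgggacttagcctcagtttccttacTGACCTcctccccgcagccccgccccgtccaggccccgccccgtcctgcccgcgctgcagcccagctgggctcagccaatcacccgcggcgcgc
Hadhb: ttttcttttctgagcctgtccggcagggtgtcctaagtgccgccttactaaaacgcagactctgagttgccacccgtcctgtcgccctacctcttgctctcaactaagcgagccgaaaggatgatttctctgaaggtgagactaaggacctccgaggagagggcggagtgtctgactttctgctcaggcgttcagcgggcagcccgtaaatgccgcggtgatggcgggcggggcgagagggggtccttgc

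The motif occurred 2 times in the Ucp3 stretch and 1 time in that of Cpt1a, and these letters were not in the windows of Pdk4 and Hadhb. The 250 bases before a RefSeq start were in hand for 30 members, and 6 of the 30 held the motif (Acadm, Acadvl, Cd36, Cpt1a, Echs1 and Ucp3), where 14% of 32851 promoters of all genes, cut to the same length, did. The motifs were searched on both strands. The longer direct repeat AGGTCANAGGTCA was in 0.0335% of all promoters and in 0 of the 30, and TCAAGGTCA, bound by estrogen-related receptors, was in 0.387% of all and in 0 of the 30. The RefSeq starts of Hadha and Hadhb lie 273 bases apart on opposite strands, with the printed Hadhb stretch between them. In the deposited table these starts are 86 bases apart, and 160 bases of the printed stretch lie inside Hadha. A match of letters is a description and shows no binding.

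Levels spanned more than 2 orders of magnitude in FPKM, the length-scaled unit in which genes can be compared. Over 20 libraries, 11 members averaged at least 50 FPKM, 15 lay from 10 to 50, 9 from 1 to 10 and 1 under 1. Among the 35 pairs of neighbours in this order, the ranges over 20 libraries were apart in 1 pair, Eci2 above Slc22a5, and overlapped in the other 34. FPKM is not corrected for library composition, and on the log2(FPKM + 1) scale the median over all tested genes was 0.0916 higher in TM+NAC, 0.053 higher in TM and 0.0474 higher in NAC than in Control. Group means in FPKM are therefore given as levels (mean ± SD, n = 5 libraries per group), and differences between groups are taken from counts with TMM scaling (trimmed mean of M-values).

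**Figure D1:**
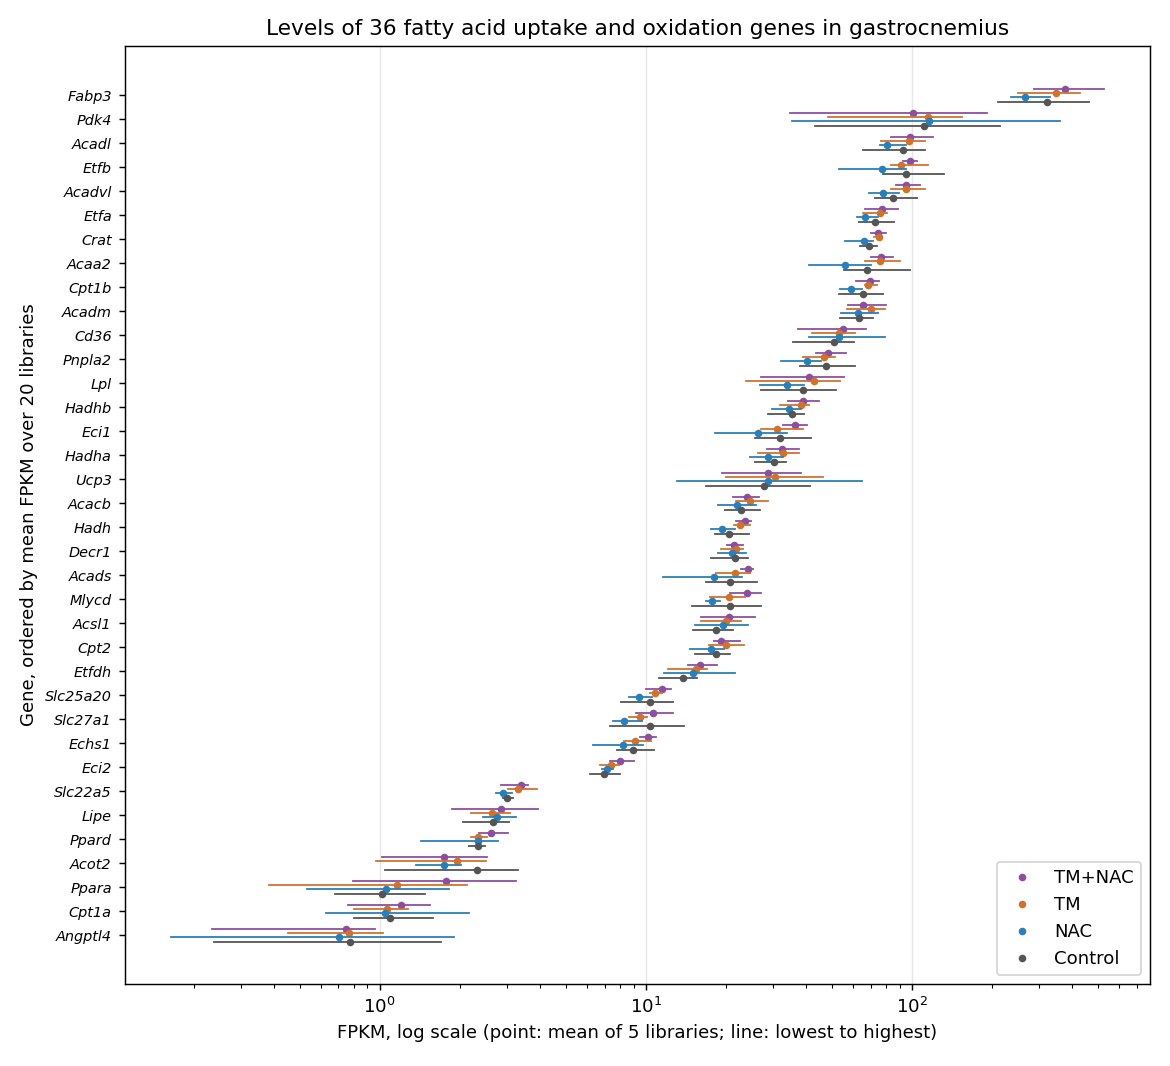
FPKM (log axis) of the 36 members in TM+NAC, TM, NAC and Control muscles, ordered by the mean over 20 libraries. Points are means of 5 libraries and lines run from the lowest to the highest. Fabp3 stands at the top (328 FPKM over 20 libraries) and Angptl4 at the bottom (0.747 FPKM), and the lines of the 4 groups overlap for most genes.

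Among the genes of uptake and activation, Fabp3, the cytosolic fatty acid binding protein of heart and muscle, was the highest of the 36 members. It averaged 378 ± 105 FPKM in TM+NAC, 347 ± 74.8 in TM, 267 ± 37.8 in NAC and 323 ± 117 FPKM in Control. Cd36, the membrane fatty acid translocase, was next, at 55.1 ± 13 FPKM in TM+NAC, 53.1 ± 8.02 in TM, 53.3 ± 14.9 in NAC and 50.8 ± 9.81 FPKM in Control. Lpl, the lipase that frees fatty acids from circulating triglyceride, stood at 41 ± 12.3 FPKM in TM+NAC, 43 ± 11.3 in TM, 33.9 ± 5.28 in NAC and 38.9 ± 11.1 FPKM in Control. The synthetase and the second transporter were lower. Acsl1, which makes long-chain acyl-CoA, had 20.6 ± 3.88 FPKM in TM+NAC, 20 ± 2.94 in TM, 19.5 ± 3.36 in NAC and 18.4 ± 2.58 FPKM in Control. Slc27a1 (FATP1), a transporter with synthetase activity, had 10.6 ± 1.4 FPKM in TM+NAC, 9.48 ± 0.557 in TM, 8.32 ± 0.879 in NAC and 10.4 ± 2.58 FPKM in Control. Angptl4, a secreted inhibitor of Lpl, was the lowest member, and its SD was close to its mean in NAC. It had 0.746 ± 0.299 FPKM in TM+NAC, 0.765 ± 0.249 in TM, 0.703 ± 0.699 in NAC and 0.776 ± 0.637 FPKM in Control.

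Both lipases of the fibre's own triglyceride were present, at unlike levels. Pnpla2 (ATGL), which takes off the initial fatty acid, averaged 48.5 ± 5.38 FPKM in TM+NAC, 46.7 ± 4.82 in TM, 40.2 ± 5.1 in NAC and 47.7 ± 9.71 FPKM in Control. Lipe (hormone-sensitive lipase), which also works in adipocytes, averaged 2.85 ± 0.75 FPKM in TM+NAC, 2.65 ± 0.341 in TM, 2.76 ± 0.41 in NAC and 2.67 ± 0.396 FPKM in Control.

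In the carnitine shuttle the muscle form of the entry enzyme prevailed. Cpt1b, the muscle isoform of carnitine palmitoyltransferase 1, averaged 69.6 ± 5.31 FPKM in TM+NAC, 68.6 ± 2.97 in TM, 58.9 ± 4.64 in NAC and 65.8 ± 9.22 FPKM in Control. Cpt1a, the isoform known from liver, averaged 1.2 ± 0.34 FPKM in TM+NAC, 1.07 ± 0.184 in TM, 1.04 ± 0.639 in NAC and 1.09 ± 0.294 FPKM in Control. The ratio of Cpt1b to Cpt1a in FPKM had a median of 61.2 over the 20 libraries and a highest value of 96.6, and its lowest value, 25.5, was in NAC 4, with 47.8 the next lowest. Of the genes that take the acylcarnitine further, Crat, which moves short acyl groups between CoA and carnitine, was high, at 74.4 ± 3.59 FPKM in TM+NAC, 75.1 ± 1.94 in TM, 66.2 ± 6.76 in NAC and 68.8 ± 4.07 FPKM in Control. Cpt2, which hands the acyl group back to CoA inside the mitochondrion, had 19.2 ± 1.92 FPKM in TM+NAC, 20 ± 2.4 in TM, 17.5 ± 1.91 in NAC and 18.3 ± 2.31 FPKM in Control. Slc25a20, the carnitine-acylcarnitine carrier of the inner membrane, had 11.6 ± 0.927 FPKM in TM+NAC, 10.9 ± 0.415 in TM, 9.42 ± 0.826 in NAC and 10.4 ± 1.95 FPKM in Control. The plasma membrane carnitine transporter lay well below these. Slc22a5 (OCTN2) had 3.4 ± 0.308 FPKM in TM+NAC, 3.3 ± 0.354 in TM, 2.9 ± 0.168 in NAC and 3.01 ± 0.0979 FPKM in Control.

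The acyl-CoA dehydrogenases make the initial oxidation of each round and differ in chain length, and flavoproteins take their electrons. Acadl, Etfb, Acadvl, Etfa and Acadm were among the abundant members, at 65.6 FPKM or more over 20 libraries. Acads (21.1 FPKM) and Etfdh (15.1 FPKM) were lower. Acadl (long chain) averaged 98.6 ± 17 FPKM in TM+NAC, 98 ± 13.9 in TM, 81 ± 7.86 in NAC and 92.7 ± 20.4 FPKM in Control. Acadvl (very long chain) averaged 94.9 ± 9.02 FPKM in TM+NAC, 95 ± 10.4 in TM, 77.9 ± 8.07 in NAC and 84.6 ± 13 FPKM in Control. The medium and short chain enzymes were lower in this order. Acadm had 65.6 ± 9.13 FPKM in TM+NAC, 70.2 ± 8.12 in TM, 63 ± 7.59 in NAC and 63.6 ± 7.6 FPKM in Control. Acads had 24.2 ± 0.899 FPKM in TM+NAC, 21.6 ± 2.44 in TM, 18.1 ± 4.15 in NAC and 20.6 ± 3.84 FPKM in Control. Of the electron transfer flavoprotein, the 2 subunits lay in a like range, above the dehydrogenase that passes the electrons to ubiquinone. Etfb, the beta subunit, had 98.6 ± 4.51 FPKM in TM+NAC, 91.4 ± 13.2 in TM, 77.2 ± 16.4 in NAC and 94.7 ± 22.5 FPKM in Control. Etfa, the alpha subunit, had 77.4 ± 8.77 FPKM in TM+NAC, 75.7 ± 5.82 in TM, 66.8 ± 4.74 in NAC and 72.7 ± 8.6 FPKM in Control. Etfdh, the ubiquinone-linked dehydrogenase, had 15.9 ± 1.7 FPKM in TM+NAC, 15.4 ± 1.97 in TM, 15.1 ± 3.77 in NAC and 13.8 ± 2.19 FPKM in Control.

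Among the later steps the thiolase Acaa2, which splits off acetyl-CoA, was the highest, at 76.5 ± 6.23 FPKM in TM+NAC, 76.2 ± 8.81 in TM, 56 ± 10.7 in NAC and 67.8 ± 18.2 FPKM in Control. The 2 subunits of the trifunctional protein, which handles long chains, were close to each other. Hadhb, with the thiolase activity, had 38.9 ± 4.76 FPKM in TM+NAC, 38.3 ± 4.04 in TM, 34.4 ± 3.44 in NAC and 35.4 ± 5.16 FPKM in Control. Hadha, with the hydratase and dehydrogenase activities, had 32.4 ± 4.28 FPKM in TM+NAC, 32.9 ± 4.15 in TM, 28.9 ± 2.94 in NAC and 30.4 ± 3.32 FPKM in Control. The enzymes for shorter chains and for unsaturated fatty acids came next. Hadh, the 3-hydroxyacyl-CoA dehydrogenase, had 23.6 ± 1.52 FPKM in TM+NAC, 22.6 ± 1.26 in TM, 19.4 ± 1.68 in NAC and 20.5 ± 2.59 FPKM in Control. Echs1, the short-chain enoyl-CoA hydratase, had 10.2 ± 0.636 FPKM in TM+NAC, 9.1 ± 0.838 in TM, 8.2 ± 1.32 in NAC and 8.94 ± 1.11 FPKM in Control. The isomerases and the reductase deal with bonds that stand in the wrong place or form. Eci1 had 36.3 ± 2.78 FPKM in TM+NAC, 31 ± 4.65 in TM, 26.5 ± 5.93 in NAC and 31.9 ± 6.23 FPKM in Control. Eci2 had 8 ± 0.693 FPKM in TM+NAC, 7.43 ± 0.447 in TM, 7.18 ± 0.29 in NAC and 6.99 ± 0.926 FPKM in Control. Decr1, the dienoyl-CoA reductase, had 21.4 ± 1.19 FPKM in TM+NAC, 21.9 ± 1.64 in TM, 21 ± 2.23 in NAC and 21.6 ± 2.69 FPKM in Control.

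The regulators held both the second highest member and some of the lowest. Pdk4, a kinase that shuts off pyruvate dehydrogenase and so spares glucose, averaged 101 ± 59.6 FPKM in TM+NAC, 115 ± 43.2 in TM, 116 ± 137 in NAC and 111 ± 63.9 FPKM in Control. Its SD exceeded its mean in NAC. Ucp3, a mitochondrial carrier of muscle that is induced by fasting, averaged 28.8 ± 8.39 FPKM in TM+NAC, 30.7 ± 9.55 in TM, 28.8 ± 20.9 in NAC and 27.8 ± 10.4 FPKM in Control. The enzymes on either side of malonyl-CoA were at like levels. Acacb, the mitochondrial acetyl-CoA carboxylase that makes it, had 24 ± 2.27 FPKM in TM+NAC, 24.7 ± 2.92 in TM, 22 ± 3.5 in NAC and 22.8 ± 2.59 FPKM in Control. Mlycd, the decarboxylase that removes it, had 24 ± 2.65 FPKM in TM+NAC, 20.5 ± 2.65 in TM, 17.8 ± 0.804 in NAC and 20.8 ± 4.92 FPKM in Control. The receptors were scarce as transcripts. Ppard had 2.63 ± 0.246 FPKM in TM+NAC, 2.35 ± 0.161 in TM, 2.34 ± 0.547 in NAC and 2.34 ± 0.138 FPKM in Control. Ppara had 1.77 ± 0.972 FPKM in TM+NAC, 1.17 ± 0.668 in TM, 1.06 ± 0.489 in NAC and 1.02 ± 0.295 FPKM in Control. Acot2, a mitochondrial acyl-CoA thioesterase, had 1.74 ± 0.626 FPKM in TM+NAC, 1.95 ± 0.648 in TM, 1.75 ± 0.261 in NAC and 2.33 ± 1.13 FPKM in Control, a value that is uncertain because its near-identical neighbour Acot1 (0.26 FPKM) could share reads with it. How reads were assigned by strand is not given in the sources used here. Of the 36 members, 12 overlapped a gene on the opposite strand, and the highest level of such a partner was 8.82% of the member's (Paox at Echs1).

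The members differed widely in how much they varied between muscles of the same group. The SD of log2 CPM within groups had a median of 0.197 over the 35 tested members, against 0.192 over all 9696 tested genes, so as a set they varied about as much as other genes. Crat (SD 0.0715, at the 0.98 percentile of tested genes), Hadh (0.0938), Slc22a5 (0.109), Cpt1b (0.112) and Etfa (0.116) were held most closely. Pdk4 (0.974, at the 99 percentile), Ppara (0.731), Ucp3 (0.616), Acot2 (0.579) and Cpt1a (0.494) varied most. Acot2, Ppara and Cpt1a are also 3 of the scarcest members, while Pdk4 and Ucp3 are not scarce.

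In the lists that follow, values are TMM-scaled CPM in libraries 1 to 5 of each group, and the numbers are used only to name the libraries. Pdk4 was at 499.3, 318.7, 770.8, 290.7 and 139.6 CPM in TM+NAC, 455.1, 638.5, 435.1, 640.1 and 199.3 in TM, 202.4, 314.4, 252.4, 1575 and 138.9 in NAC, and 192.8, 886.5, 336.1, 479.4 and 472.2 CPM in Control. NAC 4 held the highest Pdk4 level of the 20 libraries, 6.94 times the mean of the other NAC libraries, and the lowest of the 20, also in NAC, was in library 5. The groups overlapped throughout their range. Ucp3 was at 126.3, 106.2, 138.6, 66.62 and 76.43 CPM in TM+NAC, 107.9, 111.2, 102.6, 171 and 73.34 in TM, 99.77, 73.71, 69.64, 254.3 and 45.9 in NAC, and 67.32, 153.4, 79.3, 139.5 and 94.81 CPM in Control. Cpt1a was at 12.36, 11.98, 13.62, 7.73 and 6.668 CPM in TM+NAC, 9.937, 10.56, 8.847, 11.59 and 7.218 in TM, 7.641, 8.451, 5.905, 20.69 and 5.404 in NAC, and 7.839, 14.31, 9.076, 10.01 and 10 CPM in Control. Angptl4 was at 3.86, 2.996, 3.703, 0.9324 and 3.633 CPM in TM+NAC, 2.376, 4.185, 3.281, 4.31 and 1.869 in TM, 1.071, 2.636, 2.356, 8.399 and 0.6673 in NAC, and 1.465, 7.121, 1.938, 1.068 and 5.089 CPM in Control. NAC 4 was the highest library for each of these genes as well. The fitted log2 folds of Pdk4 were -0.23 ± 0.57, 0.00 ± 0.57 and 0.07 ± 0.57 (± SE) in TM+NAC, TM and NAC against Control, with edgeR adjusted p-values of 0.997, 0.999 and 0.971 in this order. Without NAC 4 the NAC fold of Pdk4 was -1.05 ± 0.44 (edgeR adjusted p 0.867), that of Cpt1a -0.58 ± 0.21 (edgeR adjusted p 0.782) and that of Ucp3 -0.56 ± 0.28 (edgeR adjusted p 0.999). In the fit on all libraries, the same folds of Cpt1a and Ucp3 were -0.09 ± 0.29 and 0.02 ± 0.36, so the direction for Pdk4 and Ucp3 turned on that library.

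**Figure D2:**
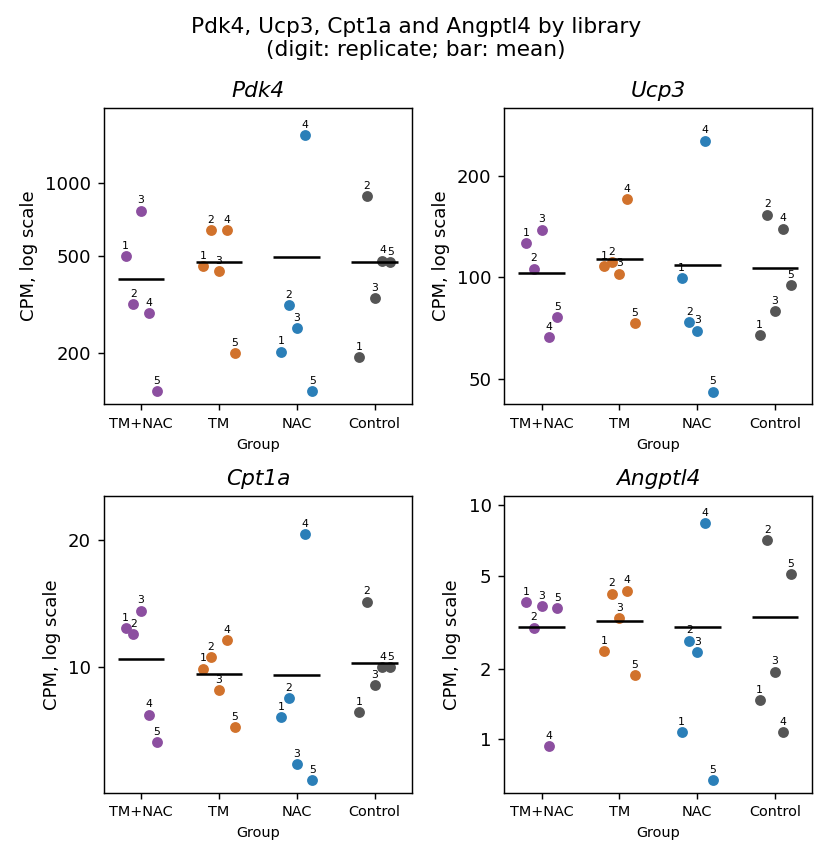
TMM-scaled CPM (log axes) of Pdk4, Ucp3, Cpt1a and Angptl4 in each library of TM+NAC, TM, NAC and Control, with the replicate digit and the mean as a bar. NAC 4 is the highest point in all 4 panels (1575 CPM for Pdk4), and the order of libraries within a group is much alike between Pdk4, Ucp3 and Cpt1a.

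Many of the members varied together between muscles of a group, and some ran opposite to others. With group means removed, log2 CPM was correlated over the 20 libraries for all 630 pairs of the 36 members, with a two-sided permutation test of 100000 resamples for each pair and Benjamini-Hochberg adjustment over the 630. The pairs named were picked after their values were seen. Pdk4 and Cpt1a had Pearson's r = 0.938 and Spearman's rho = 0.919 (permutation p = 1e-05 for each, the smallest the resamples can give, adjusted 0.00042 and 0.0007). Without the 2 libraries farthest from the median, r was 0.886, and without NAC 4 it was 0.89. Cpt1a and Ucp3 had r = 0.925 and rho = 0.892 (permutation p = 1e-05 and 2e-05, adjusted 0.00042 and 0.000787), with r = 0.849 without the 2 farthest libraries. Ucp3 and Pdk4 had r = 0.888 and rho = 0.854 (permutation p = 3e-05 and 2e-05, adjusted 0.000756 and 0.000787), with r = 0.792 without the 2 farthest. Pdk4 and Angptl4 had r = 0.713 and rho = 0.684 (permutation p = 0.00351 and 0.00257, adjusted 0.0219 and 0.017), and r was 0.723 without the 2 farthest and 0.565 without NAC 4.

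A second group formed around the trifunctional protein. Hadha and Hadhb, whose RefSeq starts flank the stretch printed above, had r = 0.941 and rho = 0.953 (permutation p = 1e-05 for each, adjusted 0.00042 and 0.0007), with r = 0.92 without the 2 farthest libraries and 0.929 without NAC 4. Acadm followed both subunits closely: with Hadha r was 0.96 and rho 0.965 (permutation p = 1e-05 for each, adjusted 0.00042 and 0.0007), and 0.957 without the 2 farthest. Eci1 and Etfb made another close pair, with r = 0.94 and rho = 0.872 (permutation p = 2e-05 and 4e-05, adjusted 0.0007 and 0.000969), and r = 0.908 without the 2 farthest. Hadha and Angptl4, in contrast, had r = 0.119 and rho = 0.12 (permutation p = 0.633 and 0.637, adjusted 0.733 and 0.758), with r = -0.0241 without the 2 farthest. With NAC 4 included, Ppard ran opposite to the Pdk4 group, with r = -0.761 with Cpt1a, -0.649 with Ucp3 and -0.622 with Pdk4. Its median r with the 34 other tested members was -0.16, with 11 positive. Acads had r = -0.636 with Acsl1, and its median was -0.0261, with 14 positive. These values include NAC 4, the lowest of the 20 libraries for Ppard and Acads. Ppard was at 13.41 CPM there and at 20.91 to 23.74 CPM in the other NAC libraries. NAC 4 was also the highest of the 20 for Cpt1a, Ucp3, Pdk4 and Acsl1. That library therefore adds to each of these negative r, and their values without it are not given here. Over the 630 pairs the median r was 0.325, and 77.6% were positive, or 0.347 and 83.0% without NAC 4; over pairs of all tested genes the median r was 0 and 49.9% were positive. All pairs share the same libraries and their scaling, so the coefficients are not independent of each other.

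In TM muscles the members lay close to Control. Positive folds were found for 21 of the 35 tested members and negative folds for 14, with a median log2 fold of 0.0181 against -0.000541 over all tested genes. Slc27a1 had the smallest p. It was at 67.19, 61.67, 76.43, 81.04 and 64.98 CPM in TM+NAC, 63.1, 60.44, 68.07, 64.29 and 69.15 in TM, 51.83, 60.6, 54.03, 55.85 and 63.49 in NAC, and 54.34, 96.29, 65.01, 86.37 and 70.32 CPM in Control. All 5 TM libraries lay below the Control mean and inside the Control range. Its log2 fold in TM against Control was -0.20 ± 0.12 (edgeR adjusted p 0.999). Acadvl (0.10 ± 0.09), Hadh (0.07 ± 0.07) and Crat (0.06 ± 0.06) followed, each at an edgeR adjusted p of 0.999. With edgeR 0 members passed, where 0% of the tested genes passed, none of the 35 had an unadjusted p under 0.05 (3.37% of tested genes had), and 0 passed with DESeq2 (0.196% of genes). The 95% intervals of the folds lay inside 1.5-fold in either direction for 30 members and inside 1.25-fold for 18, and the 5 wider ones were those of Cpt1a, Ucp3, Ppara, Acot2 and Pdk4. Single libraries moved the split. It was 20 positive to 15 negative without TM 1, with 0 members at an unadjusted p under 0.05. It was 27 to 8 without Control 2, with 2 members higher at such a p (1.44% of tested genes in that fit). It was 15 to 20 without Control 1, with 1 member lower at such a p (1.46% of tested genes), and 14 to 21 without Control 3, with 0.

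In NAC muscles most of the oxidation genes were lower than in Control by a small amount that did not pass. Of the 35 tested members 30 had a negative fold, with a median log2 fold of -0.131, against 0.000313 over all 9696 tested genes, of which 4845 were negative. By library, the members' median log2 deviation from the Control mean ran from -0.24 to -0.09 in NAC and from -0.21 to 0.2 in Control. In the NAC libraries 21 to 34 of the 35 lay below that mean, but 30 did in Control 1 and 32 in Control 3. The members vary together, so these counts do not come from independent genes. In edgeR 0 members passed (0.217% of tested genes passed). An unadjusted p under 0.05 was reached by 11 members, all lower, where 3.52% of tested genes reached it in that direction. The 11 spread over the sequence of steps: Slc27a1 in uptake, Pnpla2 in lipolysis, Cpt1b and Slc25a20 in the shuttle, Etfa and Etfb in electron transfer, Acaa2, Eci1, Echs1 and Hadh in the later steps, and Mlycd. The count depended on the method. It was 1 with limma on log2(FPKM + 1) (1.23% of tested genes) and 6 in a fit on the groups compared (1.85%). With a minimum of 5 FPKM it was 7 of 29 (3.01%), and with no filter 15 of 36 (3.44%). It was 10 with RLE scaling (3.11%) and 11 with DESeq2 (3.6%).

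By the values already given, all 5 NAC libraries of Slc27a1 lay below the Control mean, and the groups overlapped because Control 1 was low; its log2 fold was -0.38 ± 0.12 (edgeR adjusted p 0.477). Cpt1b was at 263.4, 265.9, 286.3, 277.1 and 236.5 CPM in TM+NAC, 257.3, 271.2, 270.2, 268.5 and 291.1 in TM, 237.3, 220, 250.1, 232.1 and 228.7 in NAC, and 261.4, 310.9, 224.9, 288.2 and 277.6 CPM in Control. The NAC libraries kept within a narrow band, below each Control library but Control 3. Its log2 fold was -0.22 ± 0.08 (edgeR adjusted p 0.535). Pnpla2 was -0.31 ± 0.11 (edgeR adjusted p 0.588), Etfb -0.36 ± 0.13 (edgeR adjusted p 0.598) and Acaa2 -0.34 ± 0.13 (edgeR adjusted p 0.621) on the log2 scale. The other 6 shared an edgeR adjusted p of 0.638: Eci1 -0.33 ± 0.13, Mlycd -0.28 ± 0.12, Slc25a20 -0.20 ± 0.09, Echs1 -0.19 ± 0.09, Etfa -0.18 ± 0.08 and Hadh -0.15 ± 0.07. No member had every NAC library below every Control library, where 0.289% of tested genes did. In DESeq2 0 members passed (0.392% of genes did), with a smallest adjusted p of 0.242.

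Single libraries also moved the edgeR counts. Without NAC 4, 34 of 35 members were negative and 10 were lower at an unadjusted p under 0.05, as 2.17% of tested genes were in that fit. Of the 11 members named above 7 were still among these 10. The 4 lost were those of the later steps: Acaa2 (-0.25 ± 0.12, unadjusted edgeR p 0.0548), Eci1 (-0.23 ± 0.12, p 0.0682), Hadh (-0.13 ± 0.07, p 0.0702) and Echs1 (-0.12 ± 0.08, p 0.131). The 3 gained were Pdk4 and Cpt1a, with the values given above, and Decr1 (-0.17 ± 0.08). The folds of the 7 shared genes without NAC 4 were -0.37 ± 0.12 for Slc27a1, -0.29 ± 0.13 for Mlycd, -0.26 ± 0.12 for Etfb, -0.25 ± 0.11 for Pnpla2, -0.23 ± 0.09 for Slc25a20, -0.21 ± 0.08 for Cpt1b and -0.19 ± 0.08 for Etfa. Without Control 2, the highest Control library for Acaa2, Mlycd, Acads, Cpt1b and Slc27a1, 27 members were negative and 3 had such a p, with 1.68% of tested genes. The count was 7 without Control 5 (2.88% of tested genes), 7 without NAC 1 (2.87%) and 15 without Control 3 (4.23%). Over all alternatives run, the smallest adjusted p of any member ran from 0.0987 (edgeR without Control 1) to 0.921 (edgeR without Control 2). The summed level of 9 slow and oxidative fibre markers was 2960 to 4230 CPM in NAC and 3880 to 5310 CPM in Control. It was 3040 to 6040 CPM in TM+NAC and 2150 to 5220 CPM in TM. In NAC against Control 9 of its 9 genes had a negative fold (median log2 fold -0.308), with 0 passing. Of the 9, 2 were positive in TM+NAC against Control (median -0.333) and 2 in TM against Control (median -0.228), with 0 passing. The members' medians there were 0.00046 and 0.0181. The part of these markers in the level of the members was not tested. The summed level of 5 fast fibre markers was 69300 to 102000 CPM in NAC, the highest in NAC 4, and 66200 to 83000 CPM in Control. Of 8 tested neuron markers 8 were positive in NAC against Control (median log2 fold 3.07), and 5 passed in edgeR. In TM+NAC against Control 8 were positive (median 3.3) and 6 passed. In TM against Control 8 were positive (median 2.4) and 0 passed. The part of the neuron markers was not tested.

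With both compounds the members were again near Control. The split was 18 positive to 17 negative, with a median log2 fold of 0.00046 against -0.00591 over all tested genes. In edgeR 0 members passed (0.351% of tested genes passed), 0 had an unadjusted p under 0.05 (6.38% of tested genes had), and 0 passed with DESeq2 (0.794% of genes). On the log2(FPKM + 1) scale, where the median gene shifted upward as given above, 32 of 35 were positive, with 0 passing in limma. The members with the smallest p were scarce or little moved. Ppara was at 8.048, 4.446, 14.39, 8.256 and 3.46 CPM in TM+NAC, 9.378, 5.944, 5.919, 1.772 and 3.222 in TM, 5.036, 2.528, 7.94, 5.224 and 3.223 in NAC, and 4.838, 3.095, 5.128, 7.098 and 4.084 CPM in Control. Library TM+NAC 3 was the highest of the 20, and the ranges overlapped. Its log2 fold was 0.67 ± 0.40 (edgeR adjusted p 0.947). Acot2 (-0.53 ± 0.32), Decr1 (-0.13 ± 0.09) and Hadh (0.08 ± 0.07) had edgeR adjusted p-values of 0.941, 0.966 and 0.997 in this order. The 95% intervals lay inside 1.5-fold for 30 of 35 members, as with TM alone. The even split turned on single libraries. It was 27 positive to 8 negative without Control 2 (1 member higher at an unadjusted p under 0.05, with 3.44% of tested genes), and 25 to 10 without Control 4 or without TM+NAC 5. It was 14 to 21 without Control 1, with 2 members lower at such a p (3.56% of tested genes), and likewise 14 to 21 without Control 3, with 1 (2.86%), and without TM+NAC 3, with 0.

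In TM+NAC against TM the folds scattered around 0. There were 15 positive and 20 negative folds, with a median of -0.0106 on the log2 scale and 0.00211 over all tested genes. In edgeR 0 members passed (0.0309% of tested genes passed), 0 had an unadjusted p under 0.05 (5.19% of tested genes had), and 0 passed with DESeq2 (0.196% of genes). Mlycd (0.18 ± 0.12), Acadm (-0.15 ± 0.11), Ppara (0.56 ± 0.40) and Eci1 (0.18 ± 0.13) had the smallest p, each at an edgeR adjusted p of 0.939. Without TM 1 the split was again 15 to 20, and 1 member, Ppara, was higher at an unadjusted p under 0.05 (2.23% of tested genes). It was 22 to 13 without TM+NAC 2 or without TM+NAC 5, 21 to 14 without TM 2, and 11 to 24 without TM+NAC 3.

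**Figure D3:**
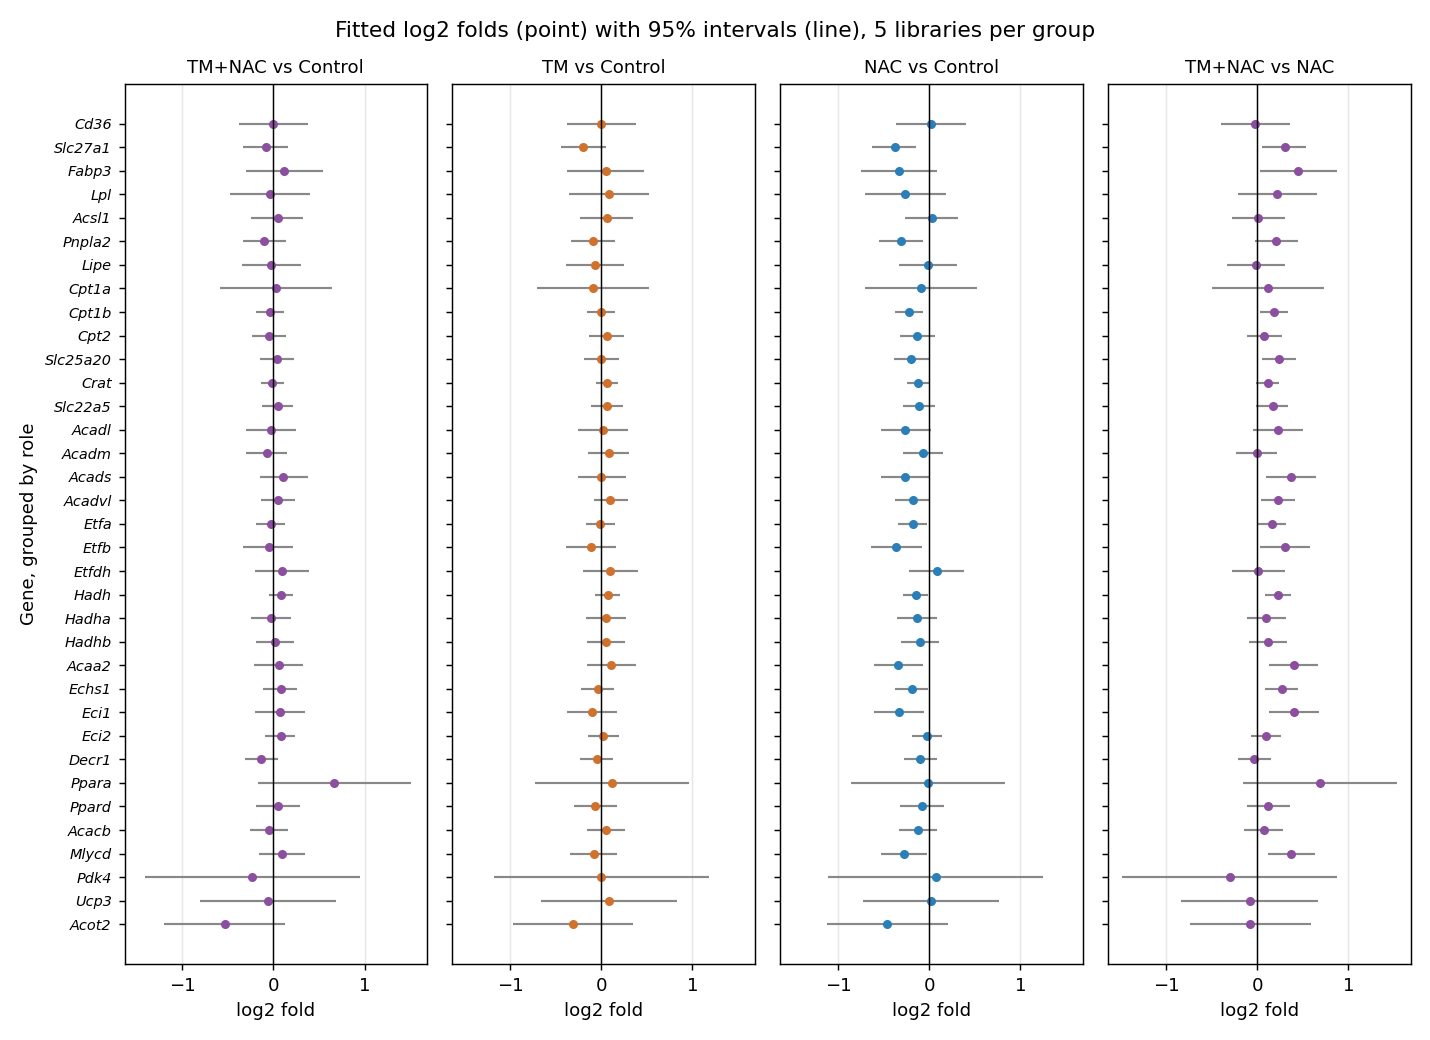
Fitted log2 folds of the 35 tested members (points) with 95% intervals (lines), grouped by role, for TM+NAC, TM and NAC against Control and for TM+NAC against NAC. In NAC against Control most points lie left of 0 (30 of 35) and in TM+NAC against NAC most lie right of it (28 of 35), while the other panels scatter around 0.

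TM+NAC muscles had more of the oxidation transcripts than NAC muscles, again without any member passing. Of 35 members 28 had a positive fold, with a median log2 fold of 0.155 against -0.0026 over all 9696 tested genes, of which 4810 were positive. In edgeR 0 members passed (0.0309% of tested genes passed), and in DESeq2 0 (0.0825% of genes). An unadjusted p under 0.05 was reached by 12 members, all higher in TM+NAC, where 4.98% of tested genes reached it in that direction. This comparison shares the NAC libraries with that of NAC and Control, so a low level in those libraries enters both. The members vary together, so these counts, too, do not come from independent genes. In 4 members, Hadh, Acaa2, Mlycd and Acads, every TM+NAC library lay above every NAC library, where 1.44% of tested genes did.

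Hadh was at 137.7, 126.8, 141.3, 135.7 and 123.2 CPM in TM+NAC, 126.4, 128.6, 135.5, 126.2 and 142.9 in TM, 111.3, 109.9, 115.3, 109.2 and 120.7 in NAC, and 119.2, 143.1, 113.1, 119.6 and 131.9 CPM in Control. NAC lay lowest of the groups, TM and TM+NAC highest, with Control between them and overlapping both. The log2 fold of Hadh in TM+NAC against NAC was 0.23 ± 0.07 (edgeR adjusted p 0.409). Acaa2 was at 120.1, 125.3, 140.6, 140.9 and 129.8 CPM in TM+NAC, 125.3, 136, 137.2, 119.7 and 160.5 in TM, 91.94, 108.9, 100.5, 77.92 and 118.9 in NAC, and 110.4, 176.4, 105.6, 108.5 and 128.4 CPM in Control. The lowest TM+NAC library stood just above the highest NAC library, and the log2 fold was 0.40 ± 0.13 (edgeR adjusted p 0.409). Mlycd was at 73.76, 85.56, 86.69, 88.32 and 69.88 CPM in TM+NAC, 59.08, 65.42, 71.88, 82.88 and 78.4 in TM, 58.8, 68.51, 58.73, 65.72 and 60.22 in NAC, and 63.79, 94.88, 55.21, 80.54 and 83.66 CPM in Control. TM+NAC and NAC were apart by a narrow gap, Control spanned the whole range of both, and the log2 fold was 0.37 ± 0.12 (edgeR adjusted p 0.409). Acads was at 61.68, 63.06, 59.63, 61.31 and 65.21 CPM in TM+NAC, 47.56, 55.62, 57.73, 62.59 and 65.18 in TM, 46.66, 54.01, 48.69, 32.83 and 58.25 in NAC, and 63.3, 70, 48.57, 47.75 and 58.17 CPM in Control. The TM+NAC libraries were close together, NAC 4 was the lowest of the 20, and the log2 fold was 0.37 ± 0.13 (edgeR adjusted p 0.409).

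Without NAC 4 the folds of these genes in TM+NAC against NAC were 0.22 ± 0.07 for Hadh, 0.32 ± 0.12 for Acaa2, 0.40 ± 0.13 for Mlycd and 0.26 ± 0.11 for Acads, each at an edgeR adjusted p of 0.901. Of the other 8 members with an unadjusted p under 0.05, Eci1 was at 79.37, 89.1, 90.36, 94.32 and 84.73 CPM in TM+NAC, 66.27, 71.36, 75.63, 77.76 and 96.78 in TM, 60.46, 77.48, 64.02, 48.38 and 80.67 in NAC, and 84.59, 104.8, 68.41, 73.28 and 84.67 CPM in Control. The highest NAC library just exceeded the lowest TM+NAC library. The log2 fold was 0.40 ± 0.13 (edgeR adjusted p 0.409). Fabp3, at 0.45 ± 0.20 with an edgeR adjusted p of 0.41, had the largest fold of the 12 and a wide error. The remaining 6, each at an edgeR adjusted p of 0.409, were Echs1 (0.27 ± 0.09), Acadvl (0.23 ± 0.09), Slc25a20 (0.24 ± 0.09), Slc27a1 (0.30 ± 0.12), Cpt1b (0.19 ± 0.08) and Etfb (0.30 ± 0.13). Without NAC 4, 35 of 35 members were positive and 13 were higher at an unadjusted p under 0.05, as 2.56% of tested genes were in that fit. These 13 held 10 of the 12. Fabp3 (0.45 ± 0.22, unadjusted edgeR p 0.055) and Etfb (0.22 ± 0.12, p 0.097) were lost, and Cpt1a (0.62 ± 0.21), Slc22a5 (0.21 ± 0.08) and Etfa (0.17 ± 0.08) were gained. The folds of the shared genes not yet given were 0.31 ± 0.12 for Eci1, 0.29 ± 0.12 for Slc27a1, 0.28 ± 0.09 for Slc25a20, 0.24 ± 0.09 for Acadvl, 0.21 ± 0.08 for Echs1 and 0.19 ± 0.08 for Cpt1b. The slow and oxidative fibre sum was 3040 to 6040 CPM in TM+NAC and 2960 to 4230 CPM in NAC, with 3 of its 9 genes positive. Myh2 (mean 1850 CPM in TM+NAC and 1490 in NAC) and Mybpc1 (1380 and 1030 CPM) made up most of that sum. Myh7 (222 and 300 CPM) and Tnnt1 (87.1 and 114 CPM) were lower in TM+NAC. The fast fibre sum was 61300 to 73100 CPM in TM+NAC and 69300 to 102000 CPM in NAC. The part of these markers in the difference was not tested.

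**Figure D4:**
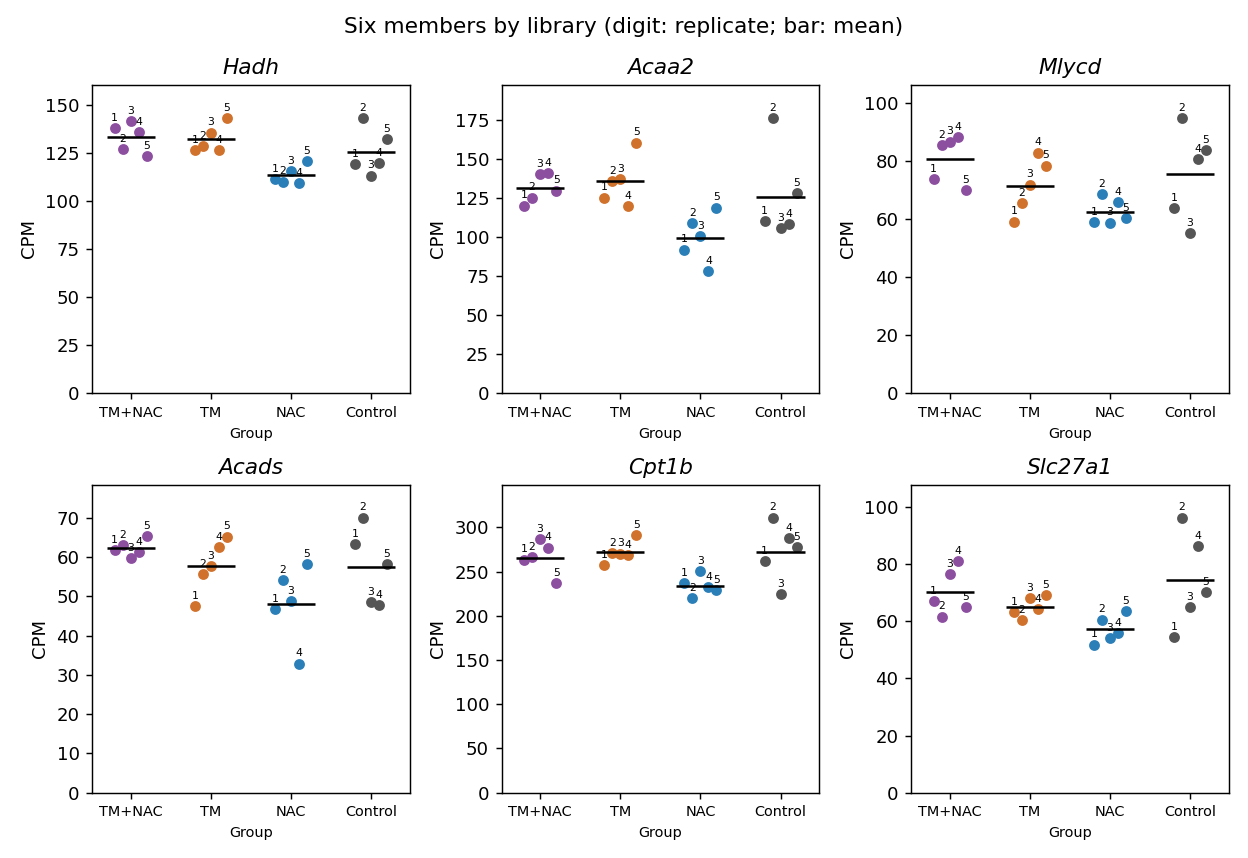
TMM-scaled CPM (axes from 0) of Hadh, Acaa2, Mlycd, Acads, Cpt1b and Slc27a1 in each library of TM+NAC, TM, NAC and Control, with the replicate digit and the mean as a bar. For Hadh, Acaa2, Mlycd and Acads all TM+NAC points are above all NAC points, and Control 2 is the highest Control library in each panel.

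The interaction asks whether the effect of TM in the presence of NAC differed from its effect alone. Of 35 members 29 had a positive interaction, with a median of 0.158 on the log2 scale against -0.00385 over all tested genes. In edgeR 0 members passed (0.0103% of tested genes passed). An unadjusted p under 0.05 was reached by 5 members, all positive, where 3.51% of tested genes reached it in that direction, and 0 passed with DESeq2 (0.0928% of genes). They were Slc27a1 (0.49 ± 0.17), Eci1 (0.50 ± 0.18), Mlycd (0.45 ± 0.17), Echs1 (0.31 ± 0.12) and Etfb (0.42 ± 0.19), each at an edgeR adjusted p of 0.597. The median was 0.0982 without Control 2, 0.0994 without TM+NAC 3 and 0.0924 without TM+NAC 4, and the count was 3 without Control 2 (2.08% of tested genes) and 9 without Control 3 (4.12%). Without NAC 4 the split was 33 positive to 2 negative and 6 members were higher at such a p, where 2.43% of tested genes were. Etfb (0.32 ± 0.17, unadjusted edgeR p 0.0727) was lost there, and Cpt1a (0.70 ± 0.29) and Slc25a20 (0.27 ± 0.13) were gained. The folds of the other 4 were 0.48 ± 0.17 for Slc27a1, 0.47 ± 0.18 for Mlycd, 0.41 ± 0.16 for Eci1 and 0.24 ± 0.11 for Echs1. The interaction of Pdk4 was -0.30 ± 0.80 on all libraries and 0.82 ± 0.60 without NAC 4, a turn of sign. Without TM 1 the split was 29 to 6 and the count 4 (2.4% of tested genes), with Etfb lost.

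**Figure D5:**
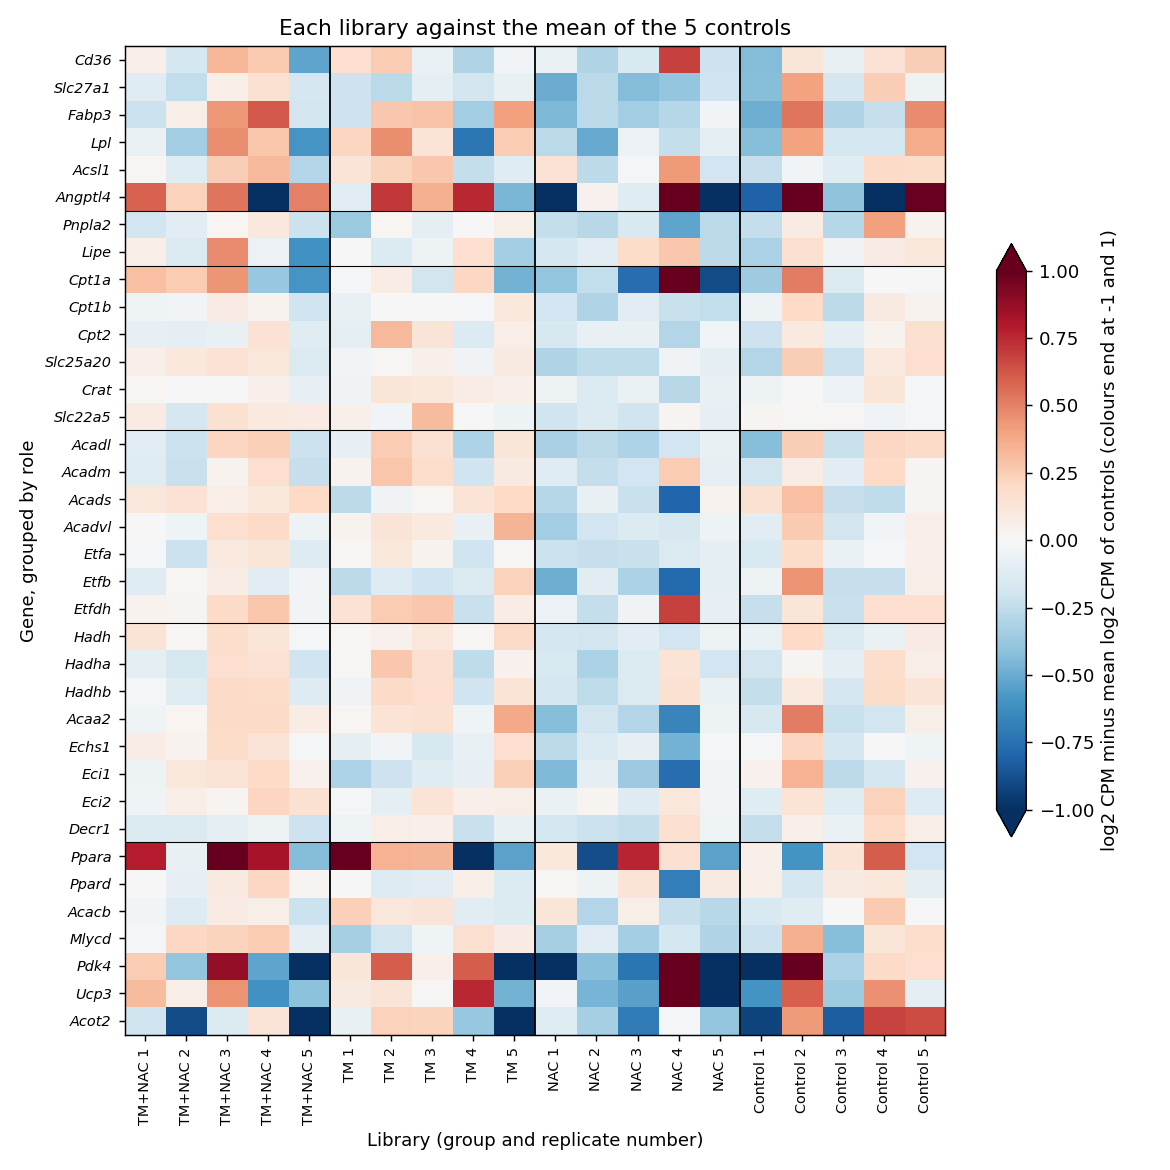
log2 CPM of each member in each library minus the mean log2 CPM of the 5 Control libraries, with members grouped by role and libraries by group (TM+NAC, TM, NAC, Control). The NAC columns are mostly pale blue, NAC 4 mixes deep red (Pdk4, Ucp3, Cpt1a, Cd36, Etfdh) with deep blue (Acads, Etfb, Eci1, Acaa2), and the Pdk4 line belongs to the tested member with the widest spread within groups (SD 0.974). Columns outside NAC are low as well: 30 of 35 tested members lie below the Control mean in Control 1, 32 in Control 3 and 29 in TM+NAC 5.

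NAC 4 did not differ from its group in one direction. It lay above the other NAC libraries for 16 members, below them for 10 and within their range for 10. It was the highest of the 20 libraries for Pdk4, Ucp3, Cpt1a, Angptl4, Cd36, Acsl1 and Etfdh. Among the genes of uptake and activation, Fabp3, Slc27a1 and Lpl lay within the range of the other NAC libraries. It was the lowest of the 20 for Cpt2, Acads, Hadh, Acaa2, Echs1, Eci1, Etfb, Pnpla2, Ppard and Crat. Cd36 was at 354.8 CPM in NAC 4 against 179.3 to 210.7 CPM in the other NAC libraries. Eci1 was at 48.38 CPM there against 60.46 to 80.67 CPM in the others.

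Genes of the neighbouring pathways were read in the same fit, from 5 lists. In each list and each of the 6 comparisons 0 genes passed in edgeR and 0 in DESeq2. The peroxisomal oxidation list had 13 tested genes of 16, and its median log2 fold was -0.0208 in NAC against Control. Its gene with the smallest p was Crot, which moves peroxisomal products onto carnitine: -0.39 ± 0.10 in TM+NAC against NAC (edgeR adjusted p 0.409), while the 6 tested members of the mitochondrial shuttle were positive there. Crot spread widely in NAC, at 56.3 ± 12.2 CPM (mean ± SD), against 43.1 ± 2.99 CPM in TM+NAC and 48.6 ± 3.82 CPM in Control. Folds of these lists are given on all libraries only. The other mitochondrial acyl-CoA enzymes, 23 tested of 28, had a median of -0.0298 in NAC against Control. Among them Acot9, a thioesterase, was 0.35 ± 0.09 in TM against Control (edgeR adjusted p 0.567), and Acsf3, which activates malonate, was -0.37 ± 0.10 in NAC against Control (edgeR adjusted p 0.407). Ech1, a dienoyl-CoA isomerase, was -0.33 ± 0.12 in NAC against Control (edgeR adjusted p 0.6).

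The lipid droplet and triglyceride list, 21 tested of 25, had 17 negative folds and a median of -0.127 in NAC against Control, and 15 positive folds and a median of 0.179 in TM+NAC against NAC. Plin5, which ties droplets to mitochondria, was -0.63 ± 0.23 in NAC against Control (edgeR adjusted p 0.588) and 0.55 ± 0.23 in TM+NAC against NAC (edgeR adjusted p 0.409). G0s2, an inhibitor of the lipase made by Pnpla2, was -0.68 ± 0.30 in TM (edgeR adjusted p 0.999) and -0.76 ± 0.30 in NAC (edgeR adjusted p 0.638) against Control. Beside this list, Adipoq, a marker of adipocytes, was at 1.24 to 10.2 CPM in TM+NAC, 1.09 to 7.52 in TM, 3.74 to 14 in NAC and 3 to 10.9 CPM in Control. The 10 white adipocyte markers summed to 1890 to 2350 CPM in TM+NAC, 1840 to 2320 in TM, 2100 to 2780 in NAC and 1470 to 2700 CPM in Control. Car3, which muscle also expresses, made up at least 72.7% of each sum, and the other 9 summed to 213 to 489 CPM in TM+NAC, 221 to 327 in TM, 281 to 476 in NAC and 255 to 401 CPM in Control. Of the 8 markers tested, 8 were positive in NAC against Control (median log2 fold 0.204), 0 in TM+NAC against NAC (median -0.565), 8 in TM+NAC against TM (median 0.346), 1 in TM+NAC against Control (median -0.259) and 1 in TM against Control (median -0.742), with 0 passing in edgeR in each. The part of these markers in the values of the list and of the members was not tested. Ucp1, which defines brown fat, was at 0 in 2 TM+NAC libraries and 1 library of each other group.

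Ketone use had 4 tested genes of 6, with 4 positive folds in TM+NAC against NAC and a median of 0.275. Slc16a1, a carrier of lactate and ketone bodies, was 0.41 ± 0.16 in TM+NAC against Control (edgeR adjusted p 0.519). The fuel selection and regulator list, 24 tested of 32, had medians of -0.0096 in NAC against Control and -0.0148 in TM+NAC against NAC. Esrra, the estrogen-related receptor that drives mitochondrial genes, was 0.33 ± 0.12 in TM+NAC against NAC (edgeR adjusted p 0.409). Mlxip, a glucose-sensing factor of muscle, was -0.25 ± 0.08 in TM+NAC against Control (edgeR adjusted p 0.367).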

How the data were processed

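RNA-seq was run on 20 gastrocnemius libraries in 4 groups of 5, with groups taken from the treatment label. Per the labels' protocols, poly(A) RNA was made into dUTP-marked libraries. The authors deposited 1 table with a whole-number count and an FPKM value for each gene and library, per the file headers. Per the submitters' processing notes, reads were processed with cutadapt 1.9, FastQC, HISAT2 2.2.1 and StringTie on GRCm38; how counts were taken, with what strand setting and on which annotation release, is not given in the sources used here. Members and lists were chosen with earlier results of these data known.

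The deposited counts of genes with a mean of at least 1 FPKM (9696 of 31618) were fitted in a single edgeR 4.0.16 quasi-likelihood model of the 4 groups (R 4.3.3, TMM scaling). Tests were two-sided, and an adjusted p under 0.05 over all tested genes counted as passing. The SE of a log2 fold is its size over the root of the F statistic, and CPM are TMM-scaled counts as parts of 1 M. Levels between genes use the deposited FPKM. In each comparison, members with an unadjusted p under 0.05, and in any case the 4 with the smallest p, were named with their folds, and up to 3 genes of each pathway list by the smallest p. NAC 4 was described, and the correlations computed, after the values were seen. The test was checked on simulated data for NAC against Control, with 50 genes changed at each fold. It recovered 24% of 1.25-fold, 66% of 1.5-fold, 88% of 2-fold and 100% of 4-fold changes. Of 9496 unchanged genes 9 were called. Small folds can therefore be missed. The depth, 54.7 to 90.7 M counts, gave the scarcest member a mean of 202 counts per library. No pair of libraries within a group was alike to within sampling noise (lowest chi-square per degree of freedom 22.87). Alternatives were RLE scaling, DESeq2 1.42.0, limma 3.58.1 on log2(FPKM + 1), other filters, fits on the groups compared, a replicate block, and leaving out libraries.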

Additional observations from a re-analysis of the deposited data

Results flagged for a closer look

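In 144 sets of 5 libraries (36 members in 4 groups), 13 held a library so far from the rest of its group that the gap passed Dixon's 95% critical value, where chance gives about 1 in 20 sets, or 7.2. NAC 4 accounted for 8 of the 13. Over the 35 tested members 8.57% of sets held such a library, against 7.72% over all 9696 tested genes. In NAC 4 alone it was 20% of the tested members and 13.7% of all tested genes, and outside NAC 4 it was 3.57% and 4.3% of sets. The members vary together, so their sets are not independent. Values are TMM-scaled CPM, set against the range of the other 4 libraries of the group.

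NAC 4 was high for Pdk4 at 1575 (others 138.9 to 314.4), for Ucp3 at 254.3 (45.9 to 99.77), for Cpt1a at 20.69 (5.404 to 8.451) and for Angptl4 at 8.399 (0.6673 to 2.636). It was also high for Cd36 at 354.8 (179.3 to 210.7), for Etfdh at 201.9 (106.8 to 123.1) and for Acadm at 363.7 (258.5 to 287.4). It was low for Ppard at 13.41 (20.91 to 23.74). That library also had the largest total and the lowest neuron marker sum of the NAC group, and the part of either was not tested.

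Elsewhere, Etfb was high in TM 5 at 156.2 (111 to 121.5). Cpt2 was high in TM+NAC 4 at 59.3 (49.19 to 50.96). Crat was high in Control 4 at 496.7 (438.1 to 453.3). Slc22a5 was high in TM 3 at 14.2 (11 to 11.82) and low in TM+NAC 2 at 10.15 (12.06 to 12.64).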

How the results depend on the processing

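No member passed in any comparison under any alternative run. The number of all tested genes passing moved more. For TM against Control, NAC against Control, TM+NAC against Control, TM+NAC against TM, TM+NAC against NAC and the interaction, in this order, it was 0, 21, 34, 3, 3 and 1 in edgeR, 19, 38, 77, 19, 8 and 9 in DESeq2, and 197, 439, 566, 21, 13 and 7 with no filter on low values. With a minimum of 5 FPKM it was 2, 0, 0, 0, 0 and 0. With limma on log2(FPKM + 1) it was 1 for TM and 2 for NAC against Control, 6 for TM+NAC against TM, 6 for TM+NAC against NAC and 3 for the interaction. A fit on the groups compared gave 2 for TM, 0 for NAC and 57 for TM+NAC against Control, and 9 for TM+NAC against TM. Without TM 1 and NAC 4 it was 30, 45 and 64 for TM, NAC and TM+NAC against Control, 7 for TM+NAC against TM and 23 for the interaction, and the members' median log2 fold in NAC against Control was -0.186. The cause was not tested.

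Replicate numbers were not used as pairs in the main fit. Of 30 same-numbered pairs 11 had deviations correlated above 0.1 (range -0.253 to 0.371), and 5 of 20 libraries correlated best with their own number. No rate for differently numbered pairs was taken, so these values cannot exclude pairing. With the replicate block 10 genes passed in NAC against Control and 0 in the interaction, and the members' median in NAC against Control was -0.181.

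Leaving out 1 library gave 0 to 22 genes passing for TM against Control, 4 to 41 for NAC against Control, 21 to 57 for TM+NAC against Control, 3 to 6 for TM+NAC against TM, 3 to 4 for TM+NAC against NAC and 0 to 7 for the interaction. The highest counts for the comparisons with Control and for the interaction came without NAC 4, and the lowest for NAC against Control without Control 1. The members' medians ran from -0.032 to 0.062, -0.186 to -0.118, -0.0399 to 0.0598, -0.0593 to 0.025, 0.115 to 0.206 and 0.0924 to 0.189 in the same order, and members passing from 0 to 0. With 5 libraries per group the 95% intervals in NAC against Control lay inside 1.25-fold for 10 of 35 members, which limits what this spread can resolve.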
